A study of Caenorhabditis elegans with 8 samples.

Results

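The count table lists 12240 gene IDs, of which 7 are described here: the mRNAs of the oocyte and early embryo proteins OMA-1, OMA-2, MEX-5, MEX-6, POS-1, MEX-1 and PIE-1 of the nematode Caenorhabditis elegans. They were chosen by name, as CCCH zinc finger proteins, with earlier results of these data known. Each was read from the count row of its WormBase ID: oma-1 (WBGene00003864), oma-2 (WBGene00003865), mex-5 (WBGene00003230), mex-6 (WBGene00003231), pos-1 (WBGene00004078), mex-1 (WBGene00003228) and pie-1 (WBGene00004027). All 7 rows held reads. The pairing of ID and name comes with that choice, because the count table itself lists IDs without names.

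The libraries were made by iCLIP, in which ultraviolet light fixes RNA to the protein it touches, and the RNA that stays on the purified protein is sequenced. The protein was FOG-3, a Tob/BTG family protein that germ cells need to become sperm. Every worm carried the same single-copy, genomically integrated FLAG-tagged FOG-3 gene and was a fourth-stage larva (L4) grown on plates. Lysis was by ball milling. The sources used here do not give the sex of the worms, the promoter of the tagged gene or whether an untagged fog-3 gene was also present. In the FOG-3 group (n = 4 libraries) the lysate was purified with the FLAG antibody. In the control group (n = 4 libraries) the antibody was left out. The design text counts each set as biological replicates.

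CCCH zinc finger proteins of this kind carry a tandem pair of small folds, each held together by a zinc ion bound to cysteines and a histidine, and they bind RNA. In the worm they act mainly on stored maternal mRNA, whose translation they hold back or permit in oocytes and in the cells of the early embryo. OMA-1 and OMA-2 act redundantly in oocyte maturation and keep maternal mRNAs silent in oocytes. MEX-5 and MEX-6 are close paralogues that set up the difference between the somatic and germline sides of the zygote. POS-1, MEX-1 and PIE-1 are inherited by the germline daughter cells of the embryo. The comparison asks whether these mRNAs came down in the FOG-3 purification more than they did when the antibody was left out. Every worm carried the tagged gene, so RNA on FOG-3 cannot be told from RNA on other material that the antibody retains.

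FOG-3 libraries held 76790 to 186739 gene-assigned reads and controls 14964 to 74892, so that 1 read was worth between 5.36 and 66.8 CPM, which are counts scaled to the gene-assigned total of the library. The file gives no numbered sample for its columns, and libraries are named here by the 4-letter tag of their column. The 10 gene IDs with the most reads took a mean of 41.8% of the total after FOG-3 purification and 77.4% without the antibody, which leaves different room for all other mRNAs. Values are therefore given as a share of gene-assigned reads, in CPM, and also on TMM-scaled totals. TMM rescales the library sizes for such shifts on the premise that most gene IDs do not differ. Its factors were 1.47 to 1.66 in FOG-3 libraries and 0.593 to 0.716 in controls. The main fit on this scale called 645 of 886 gene IDs different, so that the premise is in doubt and the TMM values depend on it. Markers of germ cells, sperm, oocytes and somatic tissues were not analysed here, because only the 7 IDs were paired with names. In whole-animal libraries, the level of an mRNA does not tell more cells holding it from more RNA bound per cell. The groups themselves differed in the antibody, not in the kind of worm. The libraries are FOG-3 and control purifications only, so reads were not set against the amount of each mRNA in the worms.

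All 7 mRNAs were present in each of the 4 FOG-3 libraries and nearly absent from the controls. Together they had 797 reads with the antibody and 6 without it. Their summed share of gene-assigned reads was 0.156% in CGGA, 0.177% in TGGC, 0.190% in GGTT and 0.201% in GGCA, a mean of 0.181% ± 0.0192 (SD, n = 4). In controls it was 0% in AATA and TTAA, 0.00535% in CCGG (1 read) and 0.00668% in TTGT (5 reads), a mean of 0.00301% ± 0.00351 (SD, n = 4). The groups lay far apart: the lower exact Clopper-Pearson bound of the lowest FOG-3 library was 0.130%, and the highest upper bound of any control was 0.0298%. Such intervals cover counting error only, at the 95% level, and reads that are PCR copies would not be independent molecules. The pooled share was 41.9 times higher in FOG-3 libraries (exact interval of the ratio 19.2 to 114.5), and 18.2 times higher (8.31 to 49.6) on TMM-scaled totals.

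**Figure D1:**
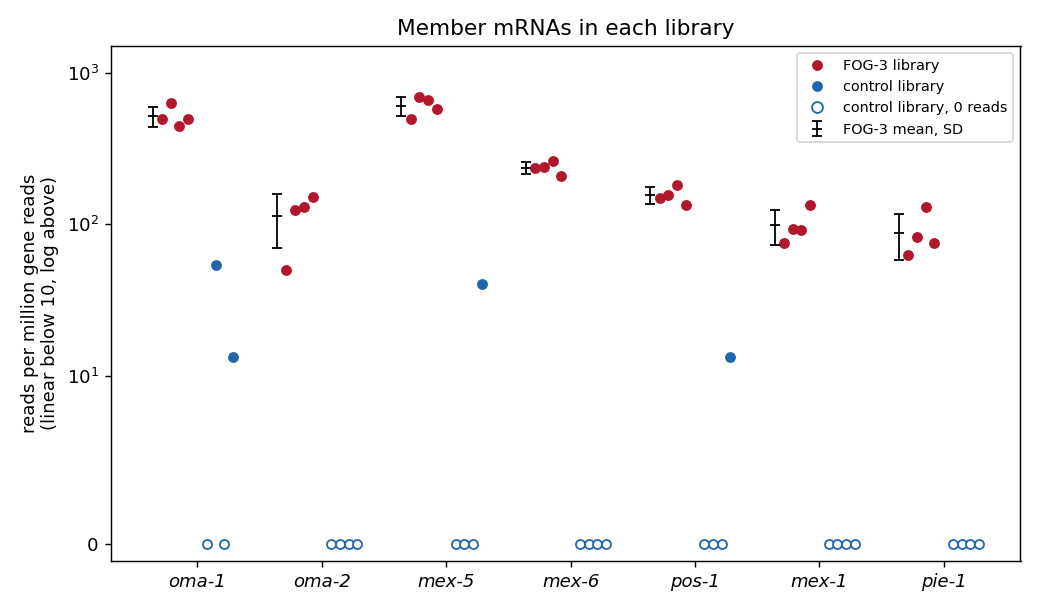
CPM (vertical axis, linear below 10 and log above) of the 7 mRNAs in each library. Red points are FOG-3 libraries, blue points controls, open points libraries with 0 reads, and black bars the FOG-3 mean with its SD (n = 4). Every FOG-3 point of an mRNA lies above every control point of that mRNA, and 24 of the 28 control values are 0.

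In 1 pair of libraries from different groups the gene-assigned totals were nearly equal. The shallowest FOG-3 library, GGTT, had 76790 gene-assigned reads and the deepest control, TTGT, had 74892. GGTT held 146 reads of the 7 mRNAs and TTGT held 5, a ratio of shares of 28.5 (exact interval 11.9 to 89.0). Their other totals were not equal: without the 10 most abundant gene IDs they held 45097 and 21437 reads, which gives a ratio of 13.9 (5.81 to 43.4), and on TMM-scaled totals the ratio was 12.3 (5.15 to 38.4). Every mRNA of the set had more reads in GGTT than in TTGT, with 34 against 1 for oma-1, 51 against 3 for mex-5 and 14 against 1 for pos-1. For oma-2 (10 reads), mex-6 (20), mex-1 (7) and pie-1 (10) TTGT had none (0). The other 3 controls held 1 read of the set in 64271 gene-assigned reads, where the pooled FOG-3 share would give 116.1. That number is on unscaled totals and would be lower on TMM-scaled totals. Over all 4 controls, 251.4 reads would be expected at the FOG-3 share and 108.9 on TMM-scaled totals, where 6 were found.

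The oocyte maturation genes oma-1 and oma-2 were both recovered. The mRNA of oma-1 had 40 reads in FOG-3 library CGGA, 61 in GGCA, 34 in GGTT and 92 in TGGC, which is 496.7, 628.5, 442.8 and 492.7 CPM. Controls CCGG and TTGT held 1 read each, which is 53.5 and 13.4 CPM, and AATA and TTAA held 0. The lowest FOG-3 level was thus well above the highest control level, and it was also above 200.5 CPM, which is the level that a count of 0 allows (3 reads) in the shallowest control. The mean was 515.2 ± 79.4 CPM (SD, n = 4) in FOG-3 libraries and 16.7 ± 25.34 in controls. In the edgeR quasi-likelihood fit over 886 gene IDs with enough reads, the log2 fold change of oma-1 was 3.87 ± 0.67 (SE), with an adjusted p of 5.1e-08. Of the gene IDs in that fit, 45.3% were called higher in FOG-3 libraries (adjusted p under 0.05), so that such a call was common. By p, oma-1 stood at place 54 among the 401 called higher.

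The mRNA of oma-2 had fewer reads, and no control held any. It had 4 reads in CGGA, 12 in GGCA, 10 in GGTT and 28 in TGGC, which is 49.7, 123.6, 130.2 and 149.9 CPM, a mean of 113.4 ± 43.9 (SD, n = 4). The lowest library, CGGA, stood 3.02-fold below the highest, the widest spread of the 7 mRNAs, which rests on 4 reads. Over the controls, 17.0 reads would be expected at the FOG-3 share and 7.38 on TMM-scaled totals, where 0 were found. Set against 3 reads over the control group, the pooled level of oma-2 was at least 5.68-fold higher as a share of gene-assigned reads and at least 2.46-fold higher on TMM-scaled totals. These bounds, and those of mex-6, mex-1 and pie-1 below, leave out counting error in the FOG-3 reads, unlike the exact intervals. The reads of oma-2 were too few for the filter of the fit above. In an edgeR fit without a filter, over all 12240 gene IDs, oma-2 was called higher with an adjusted p of 0.0010.

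The polarity genes mex-5 and mex-6 gave the largest number of reads. The mRNA of mex-5 had 40 reads in CGGA, 67 in GGCA, 51 in GGTT and 107 in TGGC, which is 496.7, 690.3, 664.1 and 573.0 CPM. Its only control reads were 3 in TTGT, which is 40.1 CPM. The lowest FOG-3 level was again above every control level and above the level that a count of 0 allows in each control. The mean was 606.0 ± 88.6 CPM (SD, n = 4) in FOG-3 libraries and 10.01 ± 20.03 in controls. In the edgeR fit mex-5 had a log2 fold change of 3.56 ± 0.59 (SE) and an adjusted p of 1.1e-08, place 46 by p among the gene IDs called higher. Without control TTGT, which leaves 0 control reads, the fitted value was 8.37, and scaled on the most abundant gene ID it was 5.42. By total FOG-3 reads, mex-5 ranked 113 and oma-1 178 of 12240 gene IDs, an order that also depends on transcript length, which was not used here.

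The mRNA of mex-6 was the steadiest of the 7 across FOG-3 libraries. It had 19 reads in CGGA, 23 in GGCA, 20 in GGTT and 39 in TGGC, which is 235.9, 237.0, 260.5 and 208.8 CPM, a mean of 235.6 ± 21.1 (SD, n = 4). No control held a read (0), where 31.9 would be expected at the FOG-3 share and 13.8 on TMM-scaled totals. Its lowest FOG-3 level was above the level that a count of 0 allows in all 4 controls, but only narrowly in TTAA (208.8 against 200.5 CPM). It was not above the exact Clopper-Pearson upper bound for 0 reads in TTAA, which was 246.5 CPM. Only the level in GGTT lay above that bound. In CCGG the exact bound was 197.5 CPM, below every FOG-3 level, and in AATA and TTGT it was lower still. The pooled level was at least 10.6-fold higher as a share and at least 4.60-fold higher on TMM-scaled totals. The edgeR fit called mex-6 higher with an adjusted p of 2.4e-06.

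Of the mRNAs that encode embryonic germline regulators, pos-1 had the most reads. POS-1 controls the translation of maternal mRNAs in the posterior cells of the embryo. Its mRNA had 12 reads in CGGA, 15 in GGCA, 14 in GGTT and 25 in TGGC, which is 149.0, 154.6, 182.3 and 133.9 CPM, and 1 read in control TTGT, which is 13.4 CPM. The groups did not overlap, but in controls CCGG and TTAA a count of 0 allows a level above the lowest FOG-3 value. The mean was 154.9 ± 20.2 CPM (SD, n = 4) in FOG-3 libraries and 3.34 ± 6.68 in controls. In the edgeR fit pos-1 had a log2 fold change of 3.03 ± 0.83 (SE) and an adjusted p of 0.0018. With limma-voom it was 1.44, scaled on the most abundant gene ID it was 4.73, and without control TTGT, which leaves 0 control reads, it was 6.38.

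The mRNA of mex-1, whose protein is needed to keep germline factors in the germline cells of the embryo, had 6 reads in CGGA, 9 in GGCA, 7 in GGTT and 25 in TGGC. These are 74.5, 92.7, 91.2 and 133.9 CPM, a mean of 98.1 ± 25.26 (SD, n = 4). No control held a read (0), where 14.8 would be expected at the FOG-3 share and 6.42 on TMM-scaled totals. The pooled level was at least 4.94-fold higher as a share and at least 2.14-fold higher on TMM-scaled totals. In the edgeR fit without a filter mex-1 was called higher with an adjusted p of 0.0028.

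The fewest reads came from pie-1, whose protein keeps transcription silent in the germline cells of the embryo. It had 5 reads in CGGA, 8 in GGCA, 10 in GGTT and 14 in TGGC, which is 62.1, 82.4, 130.2 and 74.97 CPM, a mean of 87.4 ± 29.7 (SD, n = 4). No control held a read (0), where 11.7 would be expected at the FOG-3 share and 5.06 on TMM-scaled totals. For pie-1, mex-1 and oma-2 a count of 0 limits the level to below the lowest FOG-3 value only in the deepest control, TTGT, where it allows up to 40.1 CPM. The pooled level of pie-1 was at least 3.89-fold higher as a share and at least 1.69-fold higher on TMM-scaled totals. The edgeR fit without a filter called it higher with an adjusted p of 0.0098, but without control TTGT the adjusted p was 0.082.

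**Figure D2:**
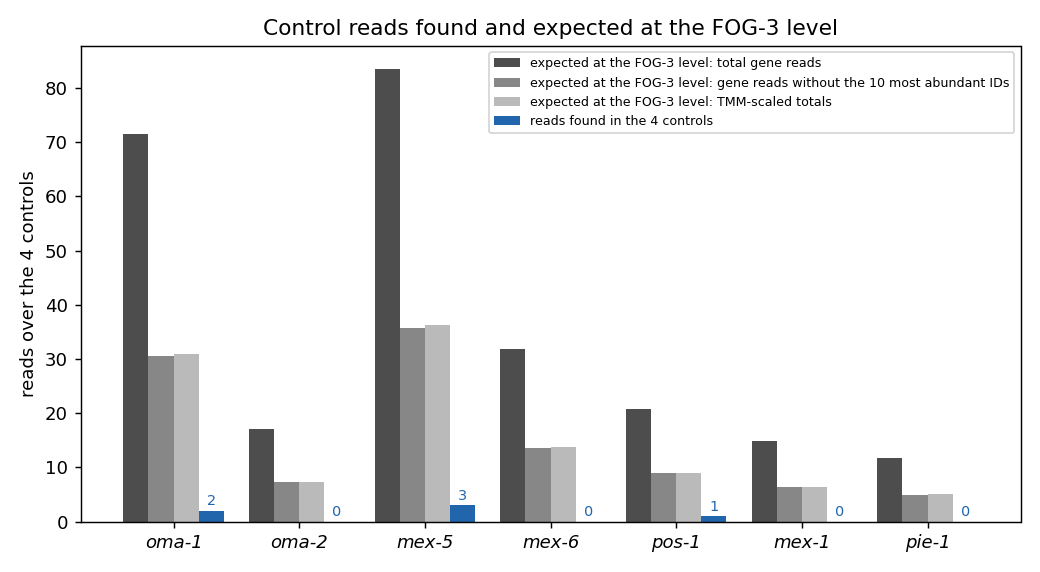
Reads found over the 4 controls (blue bars, with their number) and reads expected there if the mRNA had its pooled FOG-3 level (grey bars), for library totals taken as gene-assigned reads, as gene-assigned reads without the 10 most abundant gene IDs, and as TMM-scaled totals. The expected number is above the number found for each mRNA under each total, and for pie-1 it is 5.06 against 0 on TMM-scaled totals.

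The counts of calls have to be read against the calls among all gene IDs. In the fit without a filter all 7 mRNAs were called higher, where 7.75% of 12240 gene IDs were. Most of those gene IDs had too few reads to be called. Of the 1768 gene IDs with at least as many FOG-3 reads as pie-1 (37), 45.3% were called higher in that fit. The levels of the 7 mRNAs did not overlap between the groups, which was true of 19.7% of all 12240 gene IDs and 66.5% of these 1768. No control read was found for 4 of the 7 mRNAs and for 12.8% of these 1768 gene IDs. That share is no like measure for the 4 mRNAs, which had 37 to 101 FOG-3 reads. The 1768 also hold gene IDs with far more reads, for which a control read is likelier. The share without a control read among all 12240 gene IDs was not worked out. The shares among the 1768 favour gene IDs that are high in FOG-3 libraries, since FOG-3 reads chose them.

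On TMM-scaled totals the pooled log2 fold of the 7 mRNAs had a median of 2.20 and ran from 0.75 (pie-1) to 3.96 (oma-1), with mRNAs absent from controls entered at their lower bound. The 886 gene IDs in the filtered fit had a median of 0.74 and an upper quartile of 2.43. The median of the 7, which is the bound of mex-6 and so itself a lower bound, lay below that upper quartile. The bound of pie-1 lay at the median of the 886. Where the 7 would lie with more control reads is not known. These are unlike sets and were not tested against each other: the 886 hold 4 of the 7 mRNAs (oma-1, mex-5, mex-6 and pos-1), which passed the filter through their FOG-3 reads, and leave out the other 3. The mRNAs with control reads had pooled folds on TMM-scaled totals of 15.5 for oma-1 (exact interval 4.25 to 128.9), 12.1 for mex-5 (4.09 to 58.9) and 9.02 for pos-1 (1.56 to 361.7). These intervals overlap widely, and no order of enrichment among the 7 mRNAs could be made out at this depth.

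**Figure D3:**
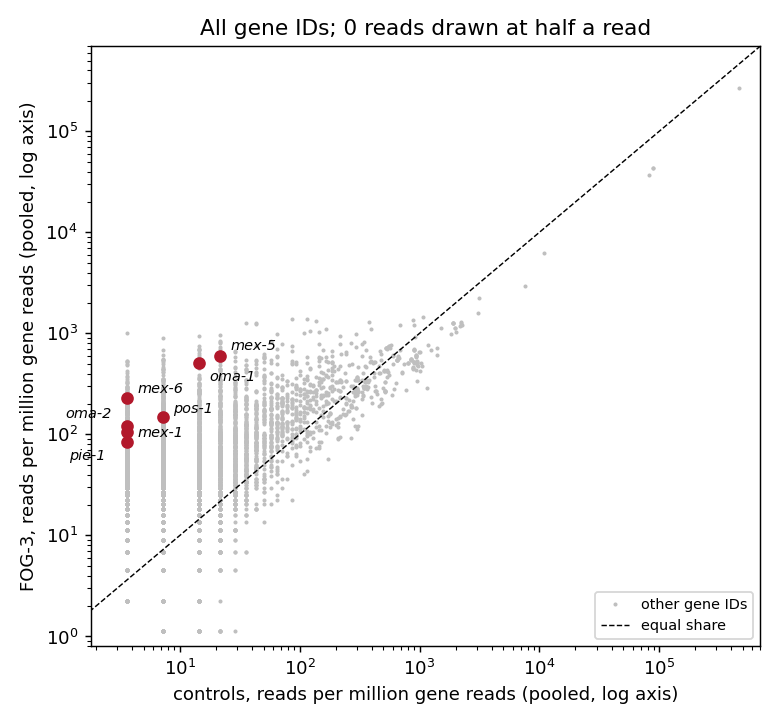
Pooled CPM in FOG-3 libraries (vertical log axis) against controls (horizontal log axis) for all 12240 gene IDs in grey and the 7 mRNAs in red, with a count of 0 drawn at the left and lower edge of the points, below 1 read and the dashed line marking equal shares. All 7 mRNAs lie above the line, and 4 of them in the column of gene IDs with no control read.

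Grouped by role, all 3 sets had pooled folds above 1, as they had to, since each of their mRNAs did. The intervals of the sets overlap. The oocyte maturation pair oma-1 and oma-2 had 281 reads with the antibody and 2 without it, a pooled fold of 19.2 on TMM-scaled totals (exact interval 5.27 to 159.4). The polarity pair mex-5 and mex-6 had 366 and 3 reads, a fold of 16.7 (5.66 to 81.2). The embryonic germline regulators pos-1, mex-1 and pie-1 had 150 and 1, a fold of 20.5 (3.62 to 815.2). With 1 to 3 control reads in each set, differences between sets were not detectable at this depth. Summed levels in FOG-3 libraries ran from 546.4 to 752.2 CPM for the oma pair, from 732.7 to 927.3 for the mex pair and from 285.6 to 403.7 for the other 3 mRNAs. The highest control values were 53.5, 40.1 and 13.4 CPM. That no set overlapped between groups follows from the same lack of overlap in each single mRNA, and adds no support.

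In each FOG-3 library the mRNAs of mex-5 and oma-1 gave the most reads. Of the reads of the 7 mRNAs, mex-5 took 31.7% to 34.9% per library, oma-1 23.3% to 31.7%, mex-6 11.8% to 15.1% and pos-1 7.58% to 9.59%. The smaller shares were 3.17% to 8.48% for oma-2, 4.62% to 7.58% for mex-1 and 3.97% to 6.85% for pie-1. The share of oma-2 varied the most in relative terms, from 4 of 126 reads in CGGA to 28 of 330 in TGGC.

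Within each pair of paralogues, the same gene had more reads in every FOG-3 library. For mex-5 over mex-6 the ratio of reads was 2.11 in CGGA, 2.55 in GGTT, 2.74 in TGGC and 2.91 in GGCA, and 2.62 over the pooled reads (exact interval 2.08 to 3.33). For oma-1 over oma-2 it was 3.29 in TGGC, 3.40 in GGTT, 5.08 in GGCA and 10 in CGGA, and 4.20 pooled (3.11 to 5.77). The high ratio in CGGA rests on 4 reads of oma-2, and its interval of 3.61 to 38.5 holds the pooled ratio. These are ratios of reads, not of levels per length. How the authors' counting treated reads that fit both paralogues is not given in the sources used here, so the split within a pair is uncertain. No gene ID in the table had the same counts as any of the 7 in all 8 libraries (0 found).

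**Figure D4:**
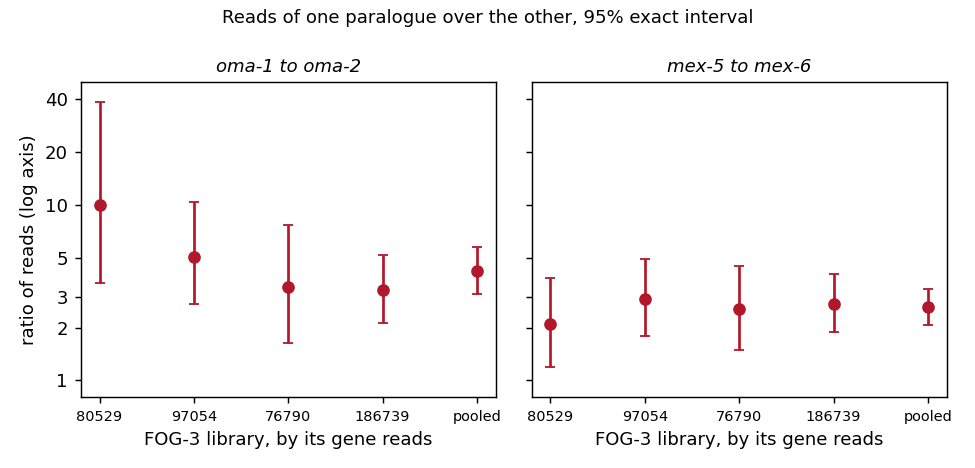
Ratio of the reads of oma-1 to oma-2 (left) and of mex-5 to mex-6 (right) in each FOG-3 library, named by its number of gene-assigned reads, and over the pooled reads, on a log axis. Points are ratios and bars exact 95% intervals for counting error. All intervals lie above 1, and within each panel they overlap.

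Neighbouring genes bear on 2 of the 7 rows. In the RefSeq gene table of assembly WBcel235, mex-1 overlaps acbp-6 and pie-1 overlaps snr-6, while the other 5 genes overlap none. Reads in such an overlap may have been set aside or given to either gene, depending on the annotation and strand setting, which the sources used here do not give. The values of mex-1 and pie-1 are uncertain to that extent.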

How the data were processed

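The values are raw counts of reads per gene, deposited by the authors as 1 table for 8 libraries. The submitters' processing notes name STAR 2.4.2 and HTSeq. Build, annotation, strand setting and any collapsing of PCR copies by random barcodes were not given in the sources used here. Column names give the group of a library but not its numbered sample, and p-values cover only the spread seen among the libraries. The 2 rows that name no gene, with 2.75% to 13.0% of reads per library, stayed out of library sizes and tests.

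The test was the quasi-likelihood F test of edgeR 4.0.16 under R 4.3.3 (TMM factors, a term for group alone, default filter with minimum count 10 and minimum total 15, Benjamini-Hochberg adjustment over all gene IDs tested). Members that failed the filter (oma-2, mex-1 and pie-1) were taken from the same fit without a filter. Standard errors are the fold change over the square root of F. Expected control reads are the pooled FOG-3 level times the control total. Ratios carry exact conditional binomial intervals and shares Clopper-Pearson intervals (scipy 1.17.1). A control group with 0 reads was set to 3 reads over the group, and the level that a count of 0 allows in a library is 3 reads of its total. Alternatives were DESeq2 1.42.0, limma-voom (limma 3.58.1), other scalings and filters, and each library left out.

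All 7 members are named. The lists of partners, targets and cell type markers, and the genes of most similar pattern, could not be looked up, because 0 IDs of the file occur in the RefSeq table of 46926 genes. Members and lists were chosen with earlier results of these data known.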

Additional observations from a re-analysis of the deposited data

Results flagged for a closer look

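Of 12 groups of 4 values tested with Dixon's test, 2 held a library that stood apart, both in controls. The test says nothing of these counts: with 3 values at 0, any read in the other library gives the highest ratio possible, so that the usual rate of about 1 in 20 by chance does not apply. Control TTGT had 13.4 CPM of pos-1 (1 read) and 40.1 of mex-5 (3 reads), where the other 3 controls had 0. TTGT is the deepest control, with 74892 gene-assigned reads. The part of depth in these values was not tested.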

How the results depend on the processing

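Each of the 7 mRNAs kept its direction under all of its 13 or 14 alternatives, and 6 of them stayed below an adjusted p of 0.05. For oma-2, mex-6, mex-1 and pie-1, with 0 reads in all controls, no scaling, filter or left-out library could reverse the direction. Their unchanged direction is therefore no evidence of robustness. The exception was pie-1 without control TTGT, with a log2 fold change of 5.61 and an adjusted p of 0.082 (range over its alternatives 2.5e-05 to 0.082). TTGT held the only control reads of mex-5 and pos-1: without it their fitted log2 fold changes were 8.37 and 6.38, which rest on 0 control reads, and leaving out each library gave 3.34 to 8.37 and 2.83 to 6.38. For oma-1 this range was 3.65 to 4.73, for mex-6 6.46 to 7.05, for oma-2 5.37 to 6.17, for mex-1 5.14 to 5.97 and for pie-1 5.20 to 5.69. Scaled on the most abundant gene ID, mex-5 gave 5.42 and pos-1 4.73. The fitted value of mex-6, which has 0 control reads and whose fitted values are no bounds, was 6.86 with edgeR, 4.997 with DESeq2 and 2.45 with limma-voom, and 7.29 with edgeR scaled on the most abundant gene ID. The fitted values of oma-2, mex-1 and pie-1 are no bounds either. Without a filter they were 6.01, 5.81 and 5.53 with edgeR. With DESeq2 they were 3.95, 3.75 and 3.50, and with limma-voom 2.11, 1.97 and 1.73.

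Over all gene IDs, 401 were called higher and 244 lower. These became 706 and 6 with scaling on the top gene ID. Total counts alone gave 84 lower and DESeq2 87 lower. Without a filter there were 948 higher and 132 lower, and with 1 CPM in 4 libraries 1172 higher, where more gene IDs were tested. Leaving out each library gave 393 to 577 higher and 120 to 257 lower, with 577 and 120 without control TTGT. Otherwise the cause was not tested. The difference in the summed share was 0.178 percentage points of gene-assigned reads, 0.298 without the 10 most abundant gene IDs and 0.156 of all reads, where the totals differ by construction. It ran from 0.171 to 0.186 with each library left out.

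No paired analysis was possible because the columns carry no replicate numbers. Depth limits the controls: 24 of 28 control values were 0. The pooled folds of oma-2, mex-6, mex-1 and pie-1, with 0 reads in all controls, are lower bounds set at 3 control reads. They leave out counting error in the FOG-3 reads.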
